A study of Mus musculus with 8 samples.

Results

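The cyclin-dependent kinase inhibitors and the Rb family were examined as 10 genes, taken by symbol from the 48709 genes counted in each library. They comprised the CIP/KIP inhibitors Cdkn1a (p21), Cdkn1b (p27) and Cdkn1c (p57), the INK4 inhibitors Cdkn2a, Cdkn2b, Cdkn2c and Cdkn2d, and the pocket proteins Rb1, Rbl1 (p107) and Rbl2 (p130). Of these 10 genes, 9 passed the filter on low counts and were tested, and Cdkn2a did not pass. RNA was sequenced from the cortex of mice at postnatal day 3 on the C57BL/6J background, with 4 control and 4 dcKO samples. The dcKO mice were BAF155 fl/fl and BAF170 fl/fl and carried hGFAP-Cre, so that both scaffolding subunits of the BAF (mSWI/SNF) chromatin remodelling complex were deleted. According to the methods of the study, the controls were BAF155 fl/+ and BAF170 fl/+ and carried the same Cre, whereas the series text calls them wild type, so the groups may share hGFAP-Cre. This Cre is active in most cells of the dorsal telencephalon before birth, the tissue holds cells that it does not reach, and the mutants die soon after birth. Nothing states that the samples of a group came from separate litters, and the p-values measure only the spread between these samples.

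CIP/KIP inhibitors bind cyclin and CDK complexes, and INK4 inhibitors bind CDK4 and CDK6 and block their pairing with D-type cyclins. Hypophosphorylated pocket proteins hold E2F transcription factors and keep E2F target genes low, with p107 and p130 acting in the DREAM complex, and phosphorylation by the CDKs releases them. In the developing cortex these genes are known for the exit of progenitors from the cell cycle, and Rbl1 is itself a known E2F target.

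Promoter sequences from RefSeq, covering the 250 bases before a start site on GRCm38.p6, were found for 8 of the 10 members, at 11 start sites. They were searched on both strands for the E2F letters TTTCGCGC, TTTGGCGC, TTTCCCGC and TTTGCCGC, and for the CHR letters TTTGAA and TTCGAA, none of which contains another. The E2F letters stood in 1.86% of all 32851 promoters, and the CHR letters in 17.1%. Among the 8 members with a promoter, 1 E2F match lay in Rbl1 and 1 at the first start of Cdkn2a. Cdkn2b and Rbl2 held 1 CHR match each. No promoter sequence was found for Cdkn1c and Rb1, which were not searched. The promoters of Rbl1 and Cdkn1b are shown because these members differed between the groups, and that of Cdkn2a because it holds the other E2F match. Capitals mark the E2F letters, which begin 18 bases before the start of Rbl1 and 99 bases before that of Cdkn2a. Rbl1 lies at chr2:157204535-157204784 on the minus strand, Cdkn1b at chr6:134920151-134920400 on the plus strand and Cdkn2a at chr4:89294620-89294869 on the minus strand.
Rbl1: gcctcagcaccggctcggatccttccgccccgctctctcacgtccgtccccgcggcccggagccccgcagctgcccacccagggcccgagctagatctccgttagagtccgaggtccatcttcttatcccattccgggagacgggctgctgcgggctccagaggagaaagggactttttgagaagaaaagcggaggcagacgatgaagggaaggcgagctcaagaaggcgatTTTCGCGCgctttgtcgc
Cdkn1b: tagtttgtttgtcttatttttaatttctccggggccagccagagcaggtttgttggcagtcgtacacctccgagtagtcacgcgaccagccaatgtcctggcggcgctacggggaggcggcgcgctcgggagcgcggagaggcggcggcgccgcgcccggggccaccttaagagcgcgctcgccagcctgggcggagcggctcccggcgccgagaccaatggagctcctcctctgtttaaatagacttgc
Cdkn2a: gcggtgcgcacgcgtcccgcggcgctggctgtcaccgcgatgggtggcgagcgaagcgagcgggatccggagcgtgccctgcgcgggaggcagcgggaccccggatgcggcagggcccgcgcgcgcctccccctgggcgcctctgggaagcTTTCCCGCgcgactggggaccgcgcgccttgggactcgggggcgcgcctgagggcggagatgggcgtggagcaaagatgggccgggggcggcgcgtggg
A match is a description of the letters, and binding was not measured in these samples.

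Total counts ran from 21126713 to 32110285 per library. Both deleted genes were lower in dcKO, with Smarcc1 (BAF155) at 159 ± 11.2 CPM in control and 81.2 ± 5.90 CPM in dcKO, and Smarcc2 (BAF170) at 483 ± 14.7 and 283 ± 28.2 CPM (SD, n = 4 each; edgeR adjusted p = 5.44e-06 and 2.28e-05). CPM are counts relative to the TMM-scaled library size. Markers of cortical excitatory neurons were present in every library, with sums of 2083 to 2237 CPM in control and 1159 to 1319 CPM in dcKO, and 8 of 10 were called lower, against 18.9% of all genes tested. Choroid plexus markers stood apart in dcKO replicates 1 and 2, at 625 and 1191 CPM in sum, against 24.1 and 8.54 CPM in the other dcKO libraries and 4.38 to 13.9 CPM in control. Mitochondrial transcripts took 2.06 to 3.23% of counts in control and 3.57 to 5.47% in dcKO.

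Of the 9 tested members, 2 were higher in dcKO and 0 lower at an adjusted p under 0.05, by the quasi-likelihood F test of edgeR with Benjamini-Hochberg adjustment over 16525 genes. The higher members were Rbl1 and Cdkn1b. At an unadjusted p under 0.05 edgeR also gave 2 members higher and 0 lower, and DESeq2 and limma-voom each called 2 higher and 0 lower. The background was wide, since 37.5% of all genes tested were called, 18.6% higher and 18.9% lower, and the share of members called, 22.2%, was not above it. The median log2 fold change was -0.01 over the tested members and 0.02 over all genes tested. In bulk tissue, fewer cells of a type and less RNA per cell cannot be told apart.

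**Figure D1:**
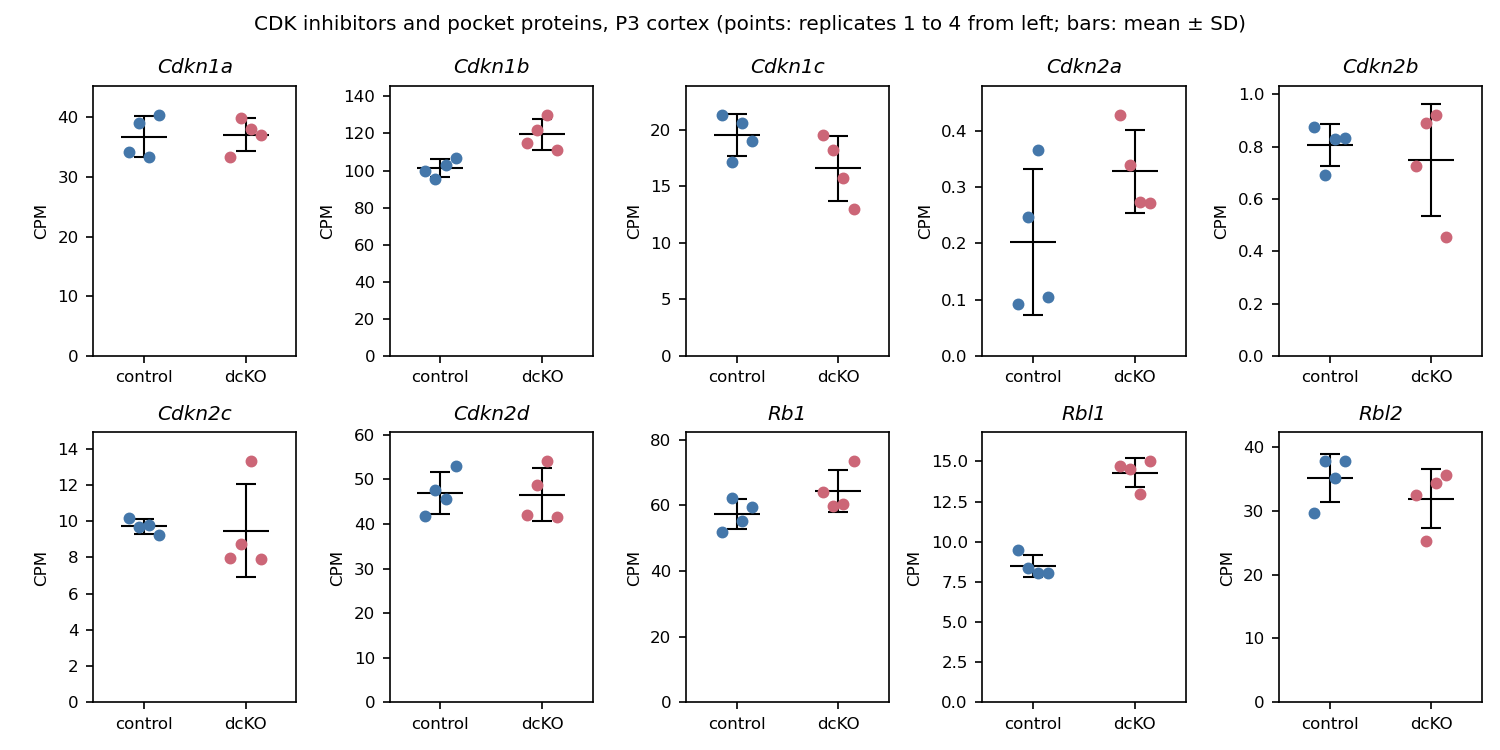
Normalized counts (CPM, linear axes from 0) of the 10 members in each of the 4 control and 4 dcKO samples, as points in replicate order, with the mean and SD as bars. The dcKO points of Rbl1 (13.0 to 15 CPM) and of Cdkn1b (111 to 130 CPM) all lie above the control points, and the groups overlap for the other 8 members. Over all genes tested, all dcKO samples lay above all controls for 16.7%, and the groups did not overlap for 34.4%.

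Among the pocket proteins, Rbl1 rose 1.69-fold in dcKO. Rbl1 (ENSMUSG00000027641, 2:157145893-157204534, minus strand, mm10) encodes p107, a repressor that works mainly with E2f4 and E2f5. It stood at 9.48, 8.38, 8.07 and 8.05 CPM in control replicates 1 to 4 and at 14.7, 14.5, 13.0 and 15 CPM in dcKO replicates 1 to 4. The lowest dcKO sample lay above the highest control sample, and the libraries with high choroid plexus markers did not stand apart from the other dcKO libraries. Its log2 fold change was 0.75 (SE 0.11, 95% interval 0.51 to 1.0, edgeR adjusted p = 0.000317), and the exact two-sided permutation test gave p = 0.0286, the smallest that 4 against 4 samples allow. All dcKO samples were above all control samples for 16.7% of the genes tested. Rbl1 was called in each of the 8 fits that left out a sample, with log2 fold changes of 0.72 to 0.80, and its difference was 0.69, 0.65 and 0.86 within sequencing lanes 5, 6 and 7. No exon of another annotated gene overlapped the exons of Rbl1, and the pseudogene Gm14277 lies between them on the other strand.

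Rb1 (ENSMUSG00000022105, 14:73183673-73325822, minus strand) encodes the retinoblastoma protein, the founding member of the family. Control replicates 1 to 4 held 52.0, 62.4, 55.4 and 59.5 CPM, and dcKO replicates 1 to 4 held 64.2, 59.7, 60.3 and 73.4 CPM. Only dcKO replicates 1 and 4 lay above all controls. The log2 fold change of Rb1 was 0.17 (SE 0.09, 95% interval -0.03 to 0.37, edgeR adjusted p = 0.168). It passed the threshold only with library totals in place of TMM, at 0.29 (adjusted p = 0.0217), a setting that moved the median of all genes from 0.02 to 0.15. Exons of Rcbtb2 and Lpar6 on the other strand overlap 8.11% and 6.78% of the exon bases of Rb1, and since the strand setting of the counting is not given in the sources used here, reads from the shared bases cannot be assigned to one gene. Rcbtb2 itself was higher in dcKO, at 44.3 ± 4.38 CPM in control and 54.8 ± 2.03 CPM in dcKO (log2 fold change 0.31, edgeR adjusted p = 0.0156), and Lpar6 had a log2 fold change of 0.45 (0.0865). The part of these genes in the Rb1 value was not tested.

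Rbl2 (ENSMUSG00000031666, 8:91070057-91123844, plus strand) encodes p130, the pocket protein most linked to quiescent cells. It measured 29.7, 37.7, 35.1 and 37.7 CPM in control replicates 1 to 4 and 32.4, 25.3, 34.3 and 35.5 CPM in dcKO replicates 1 to 4. The groups overlapped, with dcKO replicate 2 below all controls. For Rbl2 the log2 fold change was -0.14 (SE 0.12, 95% interval -0.39 to 0.12, edgeR adjusted p = 0.394). It was -0.05 without dcKO replicate 2, -0.00 without dcKO replicates 1 and 2, and -0.21 without control replicate 1. Exons of Gm45464 and Aktip on the other strand overlap 11.8% and 9.17% of the exon bases of Rbl2.

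Among the 3 CIP/KIP inhibitors, Cdkn1b rose by a small amount and the others were not called. Cdkn1b (ENSMUSG00000003031, 6:134920401-134925513, plus strand) encodes p27, an inhibitor of CDK2 complexes that accumulates as progenitors leave the cycle. It stood at 99.5, 95.7, 103 and 107 CPM in control replicates 1 to 4 and at 115, 122, 130 and 111 CPM in dcKO replicates 1 to 4. All dcKO samples lay above all controls, as for 16.7% of the genes tested, although dcKO replicate 4 lay close to control replicate 4. Cdkn1b rose 1.18-fold, with a log2 fold change of 0.24 (SE 0.07, 95% interval 0.08 to 0.40, edgeR adjusted p = 0.0238; exact permutation p = 0.0286). With all samples kept, the call was lost with no filter on low counts (edgeR adjusted p = 0.0652). It was also lost with the replicate number as a block (0.0556), although these numbers did not pair the samples. The call was lost too without control replicate 2 (edgeR adjusted p = 0.0699), control replicate 3 (0.0558), dcKO replicate 2 (0.0577) or dcKO replicate 3 (0.0580). Across the fits that left out 1 sample, the log2 fold change stayed between 0.20 and 0.29. Without both dcKO replicates 1 and 2 it was 0.25 (adjusted p = 0.0988). Within lanes 5, 6 and 7 the difference was 0.28, 0.33 and 0.06.

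Cdkn1a (ENSMUSG00000023067, 17:29090976-29100727, plus strand) encodes p21, the CDK inhibitor induced by p53. Control replicates 1 to 4 held 34.2, 39.0, 33.4 and 40.4 CPM, and dcKO replicates 1 to 4 held 33.4, 39.9, 38.1 and 37 CPM. The groups covered nearly the same range. The log2 fold change of Cdkn1a was 0.01 (SE 0.09, edgeR adjusted p = 0.922), and its 95% interval, -0.19 to 0.22, limits a change in either direction.

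Cdkn1c (ENSMUSG00000037664, 7:143458339-143461050, minus strand) encodes p57 and is an imprinted gene expressed from the maternal allele. It measured 21.3, 17.1, 20.6 and 19.0 CPM in control replicates 1 to 4 and 19.5, 18.2, 15.7 and 13.0 CPM in dcKO replicates 1 to 4. dcKO replicates 3 and 4 lay below all controls and the other dcKO samples among them. Its log2 fold change was -0.23 (SE 0.13, 95% interval -0.53 to 0.06, edgeR adjusted p = 0.188). It was -0.12 without dcKO replicate 4 and -0.45 (adjusted p = 0.0667) without dcKO replicates 1 and 2. Of 8 genes listed for its imprinted domain, 5 were tested, Cdkn1c included, with a median log2 fold change of -0.17. Of these, 0 were called by edgeR or DESeq2 and 1 by limma-voom, as higher in dcKO, against 37.5% of all genes called by edgeR. In edgeR, 1 of these had an unadjusted p under 0.05, and it was higher in dcKO, at a log2 fold change of 0.61. Endothelial markers summed to 164 to 213 CPM in control and to 90.7 to 167 CPM in dcKO, with dcKO replicate 4 lowest in this sum and in Cdkn1c. However, dcKO replicate 3, also below all controls for Cdkn1c, had the highest endothelial sum among dcKO samples. Summed markers of pericytes (214 CPM), meningeal fibroblasts (19.2 CPM) and blood (37.1 CPM) were also lowest in dcKO replicate 4. The part of these cell types in the Cdkn1c value was not tested.

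Of the 4 INK4 inhibitors, 3 were tested and 0 were called by edgeR, against 37.5% of all genes, with unadjusted p-values of 0.655 to 0.908. Cdkn2d (ENSMUSG00000096472, 9:21288410-21291407, minus strand) encodes p19Ink4d, known from postmitotic neurons. It measured 41.8, 47.5, 45.5 and 52.9 CPM in control replicates 1 to 4 and 41.9, 48.7, 54.0 and 41.5 CPM in dcKO replicates 1 to 4. These ranges were nearly the same. For Cdkn2d the log2 fold change was -0.01 (SE 0.11, 95% interval -0.24 to 0.22, edgeR adjusted p = 0.938).

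Cdkn2c (ENSMUSG00000028551, 4:109660876-109667189, minus strand) encodes p18Ink4c, an inhibitor expressed in cycling progenitors. Control replicates 1 to 4 held 10.2, 9.66, 9.79 and 9.23 CPM, and dcKO replicates 1 to 4 held 7.95, 8.73, 13.3 and 7.94 CPM. dcKO replicate 3 lay above all controls and the other 3 dcKO samples lay below all of them. The coefficient of variation was 4.17% in control and 27.2% in dcKO. Summed radial glia markers were also highest in dcKO replicate 3, at 3259 CPM against 2219 to 2508 CPM in the other dcKO samples and 2536 to 2799 CPM in control, although Pax6 (38.9 CPM) and Sox2 (84.3 CPM) of that list were lowest there among dcKO samples, and summed striatal markers were highest there too, at 703 CPM. Their part in the Cdkn2c value was not tested. The log2 fold change of Cdkn2c was -0.03 (SE 0.17, 95% interval -0.40 to 0.33, edgeR adjusted p = 0.886), and without dcKO replicate 3 it was -0.25 (adjusted p = 0.129).

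Cdkn2b and Cdkn2a, neighbours 11646 bases apart on chromosome 4, were the lowest members. Cdkn2b (ENSMUSG00000073802, 4:89306299-89311039, minus strand) encodes p15, an inhibitor known to respond to TGF-beta. It had 19, 14, 25 and 24 counts in control replicates 1 to 4 and 17, 21, 27 and 15 counts in dcKO replicates 1 to 4. The groups overlapped, at a log2 fold change of -0.13 (SE 0.28, 95% interval -0.72 to 0.47, edgeR adjusted p = 0.747). Its direction depended on single samples, at 0.08 without dcKO replicate 4 and -0.26 without dcKO replicate 3.

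Cdkn2a (ENSMUSG00000044303, 4:89274471-89294653, minus strand) encodes p16 and, in another reading frame, p19Arf, and the gene counts do not separate them. It had 2, 5, 11 and 3 counts in control replicates 1 to 4 and 10, 8, 8 and 9 counts in dcKO replicates 1 to 4, where a floor of 3 counts equals 0.0906 to 0.148 CPM. On the CPM scale the groups overlapped, at 0.202 ± 0.129 in control and 0.328 ± 0.0735 in dcKO (SD, n = 4; exact permutation p = 0.171). A fit with no filter gave a log2 fold change of 0.64 (SE 0.49, edgeR adjusted p = 0.425), and no difference was detected at these low counts. The coefficient of variation was 64.1% in control and 22.4% in dcKO.

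Levels between genes were compared per exon length, as RPKM (CPM per kilobase of annotated exon). In control, Cdkn2d was highest at 29.8 RPKM, followed by Cdkn1b at 22.2. Cdkn1a (10.3), Cdkn1c (9.56) and Rb1 (9.53) formed a middle group whose samples overlapped. Rbl2 (4.63), Cdkn2c (3.62), Rbl1 (1.42), Cdkn2b (0.581) and Cdkn2a (0.172) followed, with neighbours in this order not overlapping. In dcKO the order was the same except that Rb1 moved to rank 3.

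**Figure D2:**
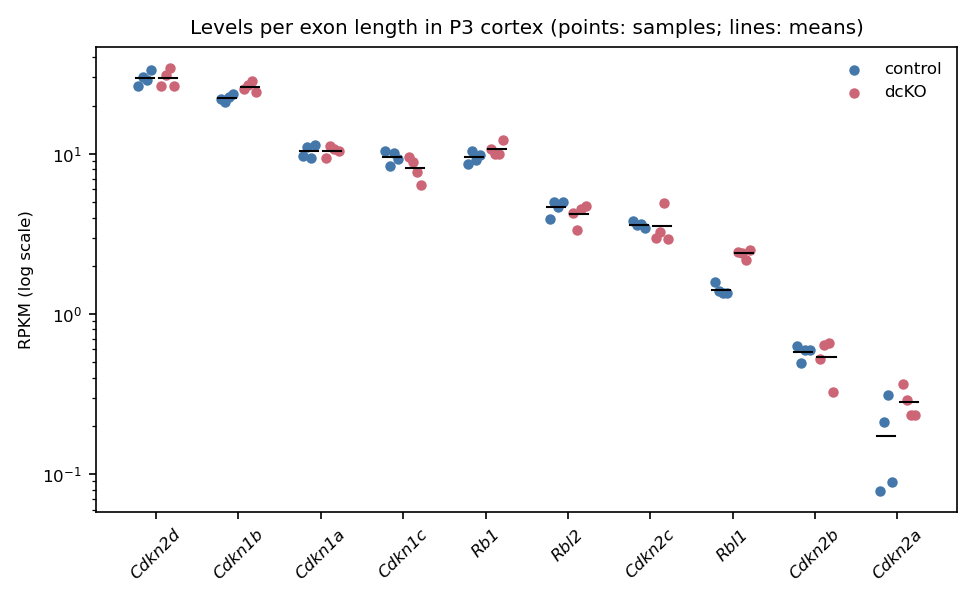
Levels of the 10 members per exon length (RPKM, log axis), ordered by the control mean, with 1 point per sample and a line at each group mean. Levels in control run from 29.8 RPKM for Cdkn2d to 0.172 for Cdkn2a, and the dcKO points of Rbl1 lie above its control points.

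Within each subfamily the RPKM were also expressed as shares of the sum. Rbl1 took 9.17 ± 1.37% of the pocket protein sum in control and 13.9 ± 1.21% in dcKO, and Rbl2 29.7 ± 1.36% and 24.3 ± 2.39% (SD, n = 4). Rb1 held 61.1% and 61.8%. Cdkn1b took 52.8 ± 0.786% of the CIP/KIP sum in control and 58.6 ± 1.77% in dcKO, and Cdkn2d 87.1% and 87.3% of the INK4 sum. These shares were chosen after the values were seen and were not tested.

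**Figure D3:**
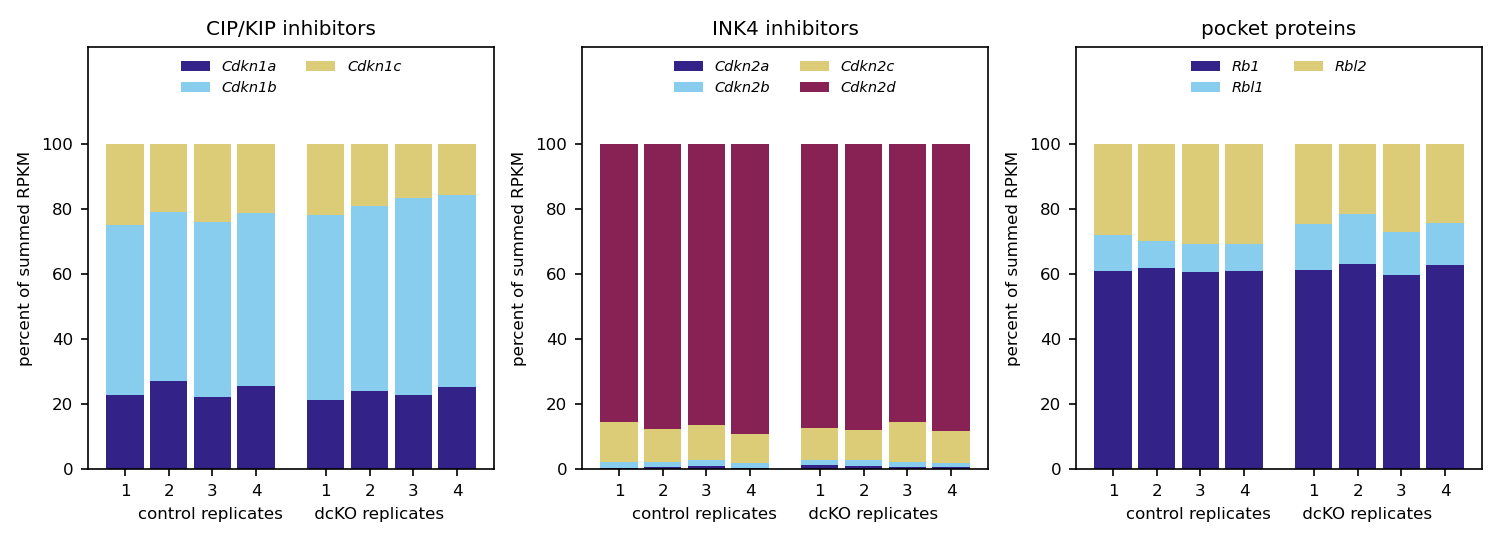
Share of each member in the summed RPKM of its subfamily (percent), as 1 stacked bar per sample. The Rbl1 segment takes 8.28 to 11.2% of the pocket protein bar in control and 12.9 to 15.5% in dcKO.

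Direct partners of the members were called at shares to be read against the 37.5% of all genes called, 18.6% higher and 18.9% lower. Of 12 cyclins and CDKs, 5 (41.7%) rose in dcKO and 0 fell in edgeR, with a median log2 fold change of 0.30. At an unadjusted p under 0.05 these counts were 8 and 2, and DESeq2 called 5 higher and 2 lower. Ccnd1, the D-type cyclin that opens the phosphorylation of the pocket proteins, rose from 29.4 ± 2.65 to 47.9 ± 4.81 CPM (log2 fold change 0.71, SE 0.10, edgeR adjusted p = 0.000210). Ccnb2, a mitotic cyclin, rose by 0.71 (adjusted p = 0.000697) and Ccne2, a partner of Cdk2, by 0.43 (adjusted p = 0.0141). The other D-type cyclins, their kinases Cdk4 and Cdk6, and Cdk2 missed the threshold. Ccnd2 had a log2 fold change of -0.05, Ccnd3 of -0.34 (edgeR adjusted p = 0.0501), Cdk4 of 0.23 (0.0752), Cdk6 of -0.30 (0.0538) and Cdk2 of 0.35 (0.0675).

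Of 10 E2F and DP factors, 2 rose and 3 fell, a share of 50.0% called against 37.5% of all genes, with a median of -0.15. Tfdp2, a DP partner of the E2Fs, rose by 0.64 (edgeR adjusted p = 0.00118) and E2f5, which binds p107 and p130, by 0.48 (0.00609). E2f4, the other main partner of p107, had a log2 fold change of -0.23 (0.0511). All its dcKO samples lay below all controls, as for 17.7% of the genes tested. E2f1, an activator bound by Rb1, fell by 0.37 (edgeR adjusted p = 0.0113). With library totals, E2f1 had a log2 fold change of -0.25 and 0 factors were called lower. Of 7 DREAM and MuvB partners, 1 rose, the histone chaperone Rbbp4 at 0.39 (0.00594), and 0 fell in edgeR, at an unadjusted p under 0.05 or in DESeq2. The share of this list called by edgeR was 14.3%, below the 37.5% of all genes.

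**Figure D4:**
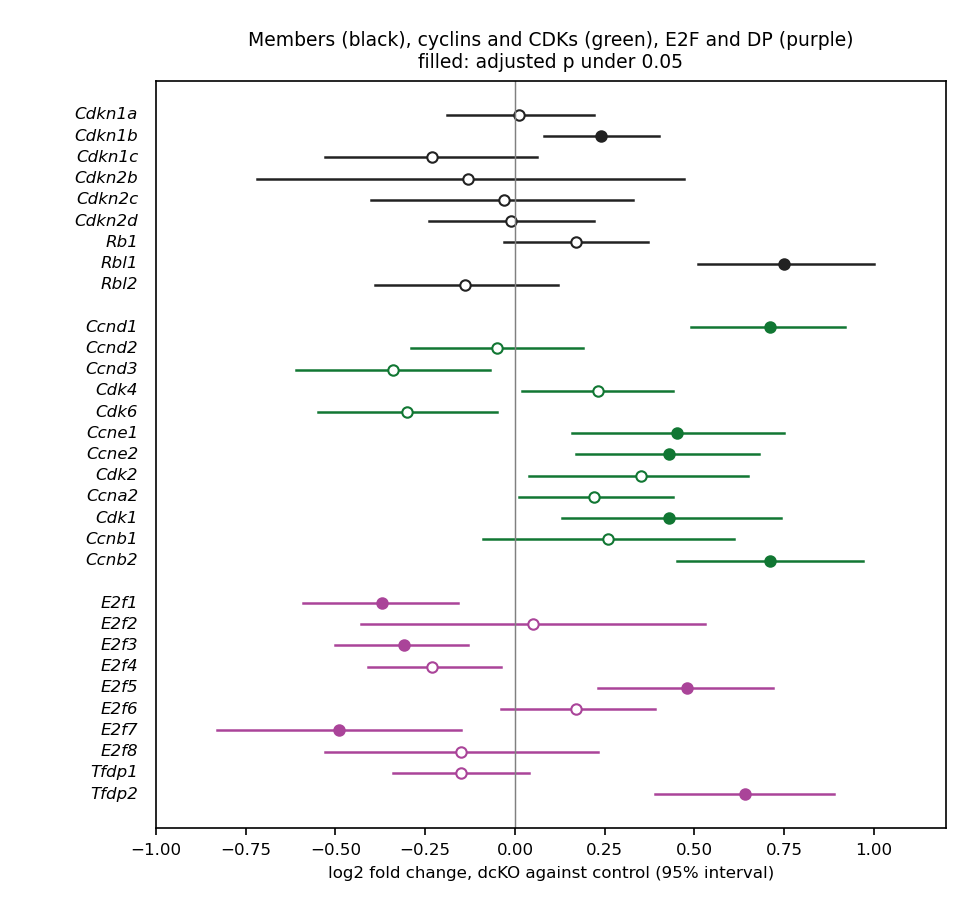
Log2 fold changes (dcKO against control) with 95% intervals for the 9 tested members, 12 cyclins and CDKs and 10 E2F and DP factors, filled where the adjusted p was under 0.05. Rbl1 (0.75), Cdkn1b (0.24) and Ccnd1 (0.71) are filled on the higher side and E2f1 (-0.37) on the lower side.

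Among downstream genes, 27.3% of E2F targets and 21.4% of genes of G2 and mitosis were called higher, against 18.6% of all genes. With 0 called lower by edgeR, these were also the shares called in either direction, below the 37.5% of all genes. Of 22 E2F target genes of S phase, 6 rose and 0 fell in edgeR (9 and 1 at an unadjusted p under 0.05, 6 and 1 in DESeq2), with a median of 0.19, led by the DNA primase subunit Prim1 (0.62, edgeR adjusted p = 0.000312), the replication factor Gins2 (0.76, 0.00165) and thymidylate synthase Tyms (0.62, 0.00472). The E2F letters stood in the promoters of 6 of the 18 of these genes that had one. Of 14 genes of G2 and mitosis, 3 rose and 0 fell in edgeR and in DESeq2 (4 and 0 at an unadjusted p under 0.05), namely Cenpa (0.71), a centromeric histone, Bub1 (0.58), a checkpoint kinase, and Birc5 (0.47), which encodes survivin. The median of this list was 0.11, with 10 positive and 4 negative log2 fold changes. Without dcKO replicates 1 and 2, the higher calls were 2 among cyclins and CDKs, 3 among E2F targets and 1 among G2 and mitosis genes. Over all genes, higher calls fell from 3074 to 1388 in this fit, which has fewer samples. Rbl1 was still called.

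Of 11 genes listed for inhibitor turnover, 4 rose and 1 fell, a share of 45.5% called against 37.5% of all genes. The number called higher fell to 2 without control replicate 3, control replicate 4 or dcKO replicate 2. Over all genes, higher calls fell from 3074 to 2199, 2461 and 2397 in these fits. Fbxw7, the ubiquitin ligase subunit that targets cyclin E, fell by 0.67 (146 ± 7.55 to 92.0 ± 1.39 CPM, edgeR adjusted p = 2.15e-05). Cks1b, the cofactor with which Skp2 recognises p27, rose by 0.83 (0.000354), and Skp1a, a core subunit of these ligases, by 0.37 (0.00471).

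Of 16 p53 pathway genes, 4 rose and 3 fell, with a median of 0.19. A share of 43.8% was called, near the 37.5% of all genes, 13 of the 16 log2 fold changes were positive, and the 3 smallest adjusted p-values belonged to falls. Plk2 fell by 0.49 (edgeR adjusted p = 0.000968), Aen by 0.50 (0.00283) and Zmat3 by 0.55 (0.00363). The rises were Eda2r at 1.09 (0.00420), Gadd45a at 0.86 (0.00438), Trp53 itself at 0.38 (0.0116) and Mdm4 at 0.41 (0.0314), while Cdkn1a, the p53 target among the members, was at 0.01. Of 19 other transcriptional regulators of the inhibitors, 4 rose and 2 fell, a share of 31.6% called, below the 37.5% of all genes. Myc and Mycn, known repressors of Cdkn1a and Cdkn2b, fell by 0.88 (5.85e-05) and 0.66 (0.00101), and Ring1, a Polycomb subunit of the kind that represses the Cdkn2a locus, rose by 0.56 (0.00203).

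**Figure D5:**
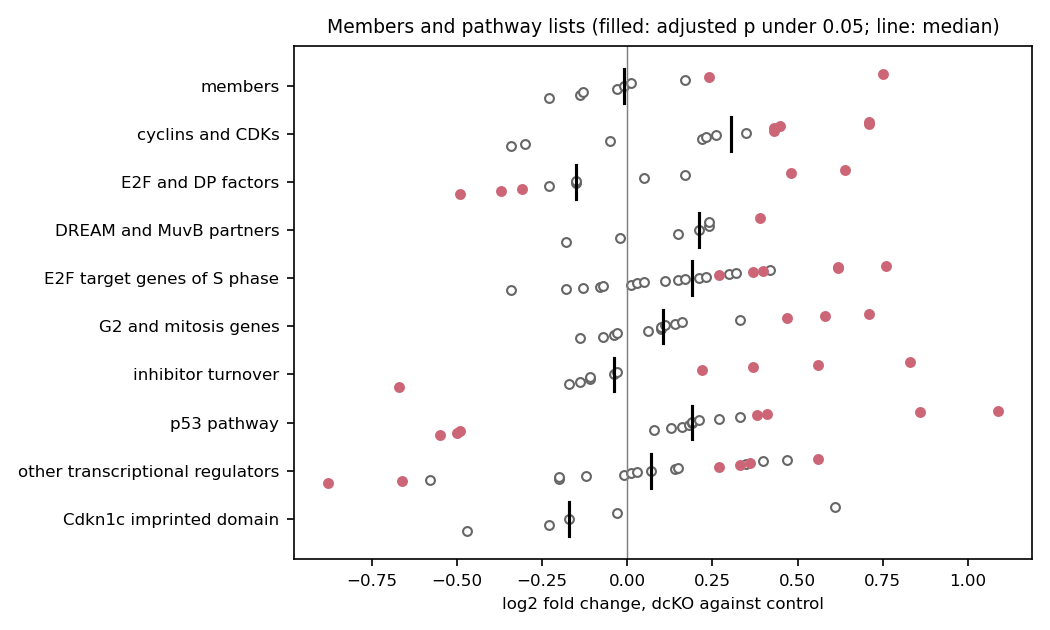
Log2 fold changes (dcKO against control) of the tested members and of 9 pathway lists, 1 point per gene, filled where the adjusted p was under 0.05, with a line at each median. The median of the members is -0.01, that of the cyclins and CDKs 0.30 and that of the E2F and DP factors -0.15.

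Of the 20 flanking protein-coding genes that do not overlap their member, 1 on each side, 14 were tested. Of these, 2 were called higher by edgeR, against 18.6% of all genes called higher. The members Cdkn2a and Cdkn2b flank each other and are counted among these genes, and Cdkn2a was not tested. Srsf3, a splicing factor gene 47603 bases from Cdkn1a, had a log2 fold change of 0.27 (edgeR adjusted p = 0.0163), and Rpgrip1l, a ciliary gene 93186 bases from Rbl2, one of 0.37 (0.0151). Beside Rbl1, Samhd1 stood at 0.19 (0.174), and beside Cdkn1b, Gpr19 stood at 0.05 (0.804). The genes whose log2 CPM followed Rbl1 most closely over the 8 samples were Cdca7l (Pearson r = 0.995), Lrrc56 (0.994) and Patj (0.990), a description over samples that share their groups and library preparation.

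Several cell type marker lists moved with the groups in the same samples. Summed markers of interneurons ran from 596 to 614 CPM in control and 914 to 994 CPM in dcKO, those of striatal neurons from 122 to 175 and 364 to 703 CPM, those of microglia from 110 to 146 and 198 to 237 CPM, and those of intermediate progenitors from 34.4 to 48.8 and 50.0 to 67.3 CPM. Called higher were 7 of 8 interneuron, 5 of 8 striatal, 6 of 8 microglial and 3 of 5 tested intermediate progenitor markers, against 18.6% of all genes. Of 10 radial glia markers, 4 were called higher, namely Pax6 (log2 fold change 1.28), Hopx (1.23), Sox2 (0.71) and Vim (0.58), and 2 lower, Nes (-0.84) and Ptprz1 (-0.46). Of 7 endothelial markers, 3 were called lower, against 18.9% of all genes. Markers of thalamus and midbrain, which lie outside the cortex, summed to 52.0 to 63.9 CPM in control and 83.5 to 133 CPM in dcKO, with 5 of 6 called higher, among them Otx2, which is also on the choroid plexus list. Oligodendrocyte precursor markers ran from 439 to 474 CPM in control and 236 to 314 CPM in dcKO, and 7 of 7 were called lower. The part of these cell types in the values of Rbl1 and Cdkn1b was not tested.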

How the data were processed

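Total RNA of 8 P3 cortices (4 control, 4 dcKO) was sequenced after TruSeq library preparation. The authors mapped reads to mm10 and deposited raw, unnormalized counts of featureCounts for each gene; aligner, annotation and strand setting are not given in the sources used here. Groups came from the sample labels. Of 48709 gene identifiers, 48349 matched GENCODE M21 (coordinates, exon lengths), and 16525 passed edgeR's filter (minimum count 10). Counts were tested with edgeR 4.0.16 (R 4.3.3; robust quasi-likelihood F test, TMM, no block) with Benjamini-Hochberg adjustment over all genes tested (threshold 0.05). Exact two-sided permutation tests ran over the 70 arrangements of samples. Samples of a group differed by more than sampling noise. Depth limits genes of few counts most, and intervals cover the spread between these samples.

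The members, lists and tests were chosen with earlier results of these data known. Named were all members, the deleted genes, the 3 list members with the smallest adjusted p among those called, D-type cyclins with Cdk4, Cdk6 and Cdk2, nearest genes, and the 3 genes most like the member with the largest called rise; no member was called lower. Alternatives were DESeq2 1.42.0, limma-voom (limma 3.58.1), DESeq2 size factors, library totals, 2 other filters, the replicate number or lane as a block, each sample left out, and, chosen after seeing the data, both dcKO replicates 1 and 2 left out. On simulated data for 16525 genes with 200 changed 2-fold, edgeR recovered 71% of these, with 7.19% false calls. In the real data 37.5% of genes were called, with a median absolute log2 fold change of 0.56, so these rates need not carry over.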

Additional observations from a re-analysis of the deposited data

Results flagged for a closer look

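Cdkn2c stood at 13.3 CPM in dcKO replicate 3, while the other 3 dcKO samples lay between 7.94 and 8.73 CPM. The gap was a share of 0.853 of the range of the group, above Dixon's 95% critical value for 4 samples. Chance gives such a gap in about 1 in 20 groups, and 1 was found among the 38 groups checked, where 1.9 are expected.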

How the results depend on the processing

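Rbl1 remained called under all alternatives run, with log2 fold changes from 0.72 to 0.87 and adjusted p-values up to 0.0112. The number of members called higher fell from 2 to 1 with no filter on low counts and without dcKO replicates 1 and 2, and ranged from 1 to 2 when each sample was left out, Cdkn1b being the call lost. Replicate numbers did not pair the samples (same-number correlations 0.17, -0.07, 0.21 and -0.02). With the replicate number as a block, 1 member was called higher, since Cdkn1b had an adjusted p of 0.0556, 1 gene of the Cdkn1c domain was called higher, and 5914 genes were called in all. Cyclins and CDKs called lower numbered 2 with DESeq2 and 1 each with limma-voom, DESeq2 size factors, no filter and the lane block, against 0 in the main test. DESeq2 called 1 E2F target lower, and limma-voom and the lane block each called 1 gene of the Cdkn1c domain higher. Library totals called 4584 genes higher and 2102 lower, with 8 cyclins and CDKs, 2 DREAM partners, 10 E2F targets, 8 p53 pathway genes and 1 Cdkn1c domain gene higher and 0 E2F and DP factors lower. Without dcKO replicates 1 and 2, 2969 genes were called (1388 higher, 1581 lower), with higher calls for 2 cyclins and CDKs, 1 E2F or DP factor, 3 E2F targets, 1 G2 and mitosis gene, 2 turnover genes, 1 p53 pathway gene and 1 other regulator, and lower calls for 0 E2F and DP factors and 1 p53 pathway gene; this fit has fewer samples. Leaving out each sample gave 3 to 7 cyclins and CDKs higher and 0 to 1 lower, 2 to 4 turnover genes and 2 to 5 other regulators higher, 0 to 1 E2F targets lower, and 0 to 1 Cdkn1c domain genes in either direction. Over all genes, these fits called 2199 to 3308 higher and 2375 to 3273 lower. The other causes were not tested.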
